A study of Mus musculus with 3 samples.

Results

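Gata2, Gata3, Gata4, Gata5 and Gata6 encode zinc finger transcription factors that bind the GATA motif in DNA. Their methylation was read in colon organoids from all 200-bp bins of the genome that overlap one of these genes or the 5 kb on either side of it. That made 1057 of the 12313737 bins measured: 117 at Gata2, 205 at Gata3, 415 at Gata4, 103 at Gata5 and 217 at Gata6. Methylated DNA was enriched with a protein that binds methylated CpG sites and was then sequenced (MBD-seq), so high coverage marks many methylated CpGs in a fragment. Coverage also depends on how many CpGs a stretch of DNA holds, and levels are therefore set against each other between libraries in the same stretch.

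GATA factors bind regulatory DNA early in a lineage and work with partner proteins such as the FOG cofactors and LMO2. Gata4, Gata5 and Gata6 act in endoderm and heart: Gata4 is a factor of the proximal small intestine, and Gata6 is active along the whole intestine and supports crypt cell proliferation. Gata2 acts in blood stem cells, mast cells and endothelium, and Gata3 in T cells, mammary epithelium and kidney. In human colorectal and gastric cancers, GATA4 and GATA5 are known as genes whose promoters become methylated.

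Each of the 3 groups held 1 library. The organoids came from the proximal colon of male mice aged around 40 days, of a line heterozygous for a Braf V600E allele that stays silent until Cre acts on it (Braf+/LSL). The first group, Braf Base medium, had received Cre by lentivirus and then grew in Base medium, without the stem-cell niche factors. The second, Braf full medium, had received Cre and stayed in medium with Wnt3a, R-Spondin, Noggin and EGF. The third, the empty vector group (EV), had received the lentiviral backbone without Cre and was kept in full medium; whether these organoids carried the silent allele is not stated. All were cultured for 5 months and then for 3 weeks in the medium named. The promoter driving Cre is not stated in the labels, and growth in Base medium cannot be told apart from selection of the cells able to grow there. A group of 1 library has no spread of its own, so differences between the cultures and differences between the conditions cannot be told apart and there are no p-values. The intervals given are exact Clopper-Pearson ones at 95% for the estimated reads, and they cover counting error only. Both comparisons with EV share that library.

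Coverage below is a whole number of read overlaps times a step set by the authors' scaling, per 200-bp bin. The libraries held 14850571 overlaps in Braf Base medium, 20914446 in Braf full medium and 12530155 in EV, from an estimated 5985362, 8648828 and 5041726 reads. Braf full medium had a raised background: away from covered regions the mean coverage per bin was 0.00557 in Braf Base medium, 0.0425 in Braf full medium and 0.00561 in EV. Within 1 Mb of the Gata genes, the background ratio differed from that of the genome by -0.18 to 0.19 (log2) for Braf Base medium over EV, by -0.07 to 0.14 for Braf full medium over EV and, for Braf Base over full medium, by -0.31 at Gata4 to 0.11 at Gata2. Methylation gives no expression, so the tissue label could not be checked by it. At the gene ends, 2, 4 and 2 of 10 markers of colon epithelium reached a coverage of 0.119 in Braf Base medium, Braf full medium and EV. In the same order, 0, 0 and 0 of 6 immune markers, 2, 3 and 3 of 9 fibroblast and muscle markers and 4, 4 and 3 of 6 endothelial and neural markers did. The share of all genes reaching this coverage was not worked out for any library, so these counts could not be set against the genome. They were not corrected for the raised background of Braf full medium.

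RefSeq start sites on GRCm38.p6 (the mm10 assembly) were at hand for 3 of the 5 genes. Their promoters, from 250 bases before the start to 50 after it, are printed because the start of Gata5 is where coverage appeared and the starts of Gata3 and Gata2 are where it did not. Each is written 5′ to 3′ on the gene's strand with every CpG (the motif CG, which reads the same on both strands) in capitals.
Gata5, chr2:180334630-180334929, reverse strand: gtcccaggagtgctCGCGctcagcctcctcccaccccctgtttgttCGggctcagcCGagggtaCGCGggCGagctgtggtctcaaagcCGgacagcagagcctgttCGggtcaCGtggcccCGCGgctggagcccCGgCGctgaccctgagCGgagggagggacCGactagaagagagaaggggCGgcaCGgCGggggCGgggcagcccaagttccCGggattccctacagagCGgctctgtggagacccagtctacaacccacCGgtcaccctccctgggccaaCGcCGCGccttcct
Gata3, chr2:9878551-9878850, reverse strand: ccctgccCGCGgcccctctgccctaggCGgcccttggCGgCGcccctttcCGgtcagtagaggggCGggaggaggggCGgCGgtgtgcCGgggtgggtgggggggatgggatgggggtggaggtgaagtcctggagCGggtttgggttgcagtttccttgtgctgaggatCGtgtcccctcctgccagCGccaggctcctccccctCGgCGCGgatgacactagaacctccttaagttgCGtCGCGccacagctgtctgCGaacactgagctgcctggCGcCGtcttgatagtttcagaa
Gata2, upstream start, chr6:88193641-88193940, forward strand: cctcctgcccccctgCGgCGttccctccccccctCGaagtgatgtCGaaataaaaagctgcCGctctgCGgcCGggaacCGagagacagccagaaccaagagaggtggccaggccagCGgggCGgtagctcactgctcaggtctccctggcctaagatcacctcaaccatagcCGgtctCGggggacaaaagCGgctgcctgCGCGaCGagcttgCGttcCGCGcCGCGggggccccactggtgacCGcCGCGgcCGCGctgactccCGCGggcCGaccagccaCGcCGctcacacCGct
Gata2, downstream start, chr6:88198414-88198713, forward strand: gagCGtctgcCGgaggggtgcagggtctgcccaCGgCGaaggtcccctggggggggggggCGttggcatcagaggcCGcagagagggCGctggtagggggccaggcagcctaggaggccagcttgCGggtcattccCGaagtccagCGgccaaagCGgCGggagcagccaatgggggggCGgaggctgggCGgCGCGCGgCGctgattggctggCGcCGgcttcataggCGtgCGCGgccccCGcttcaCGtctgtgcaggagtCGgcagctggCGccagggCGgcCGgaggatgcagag
All of them are rich in CpG: Gata5 has 26, Gata3 has 22 and the Gata2 starts have 32 and 29, where the median of 31396 promoters of this length was 7 and 94.8% held at least 1. Of all promoters, 17.4% had at least as many CpGs as Gata5.

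The promoter of Gata5 printed above had a coverage of 1.24 in Braf Base medium, 1.96 in Braf full medium and 0.100 in EV. Both Braf libraries were thus far above EV, by 12.4-fold in Base medium (95% interval 2.50 to 86.3) and 19.5-fold in full medium (4.01 to 135). The Gata3 promoter had no overlap in Braf Base medium, 0.0490 in Braf full medium and no overlap in EV; counts of 0 there allow a coverage of up to 0.0919 in Braf Base medium and 0.125 in EV. The Gata2 promoters had 0 and 0 in Braf Base medium, 0.0980 and 0.122 in Braf full medium, and 0.0502 and 0 in EV, where a count of 0 allows up to 0.138 in Braf Base medium and 0.187 in EV. A promoter was called gained if its log2 ratio between libraries was at least 1, with the mean coverage of 0.0597 added to both sides, and the higher library reached 0.298 (5 times that mean). Gata5 was the 1 of the 4 windows gained, in Braf Base medium over EV and in Braf full medium over EV; 3.34% and 2.56% of all promoters were gained in these comparisons, and 7.47% and 4.86% of the 5450 with at least as many CpGs as Gata5. In Braf Base over full medium none of the 4 windows was gained, where 1.65% of all promoters and 4.51% of those as rich in CpG were.

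**Figure D1:**
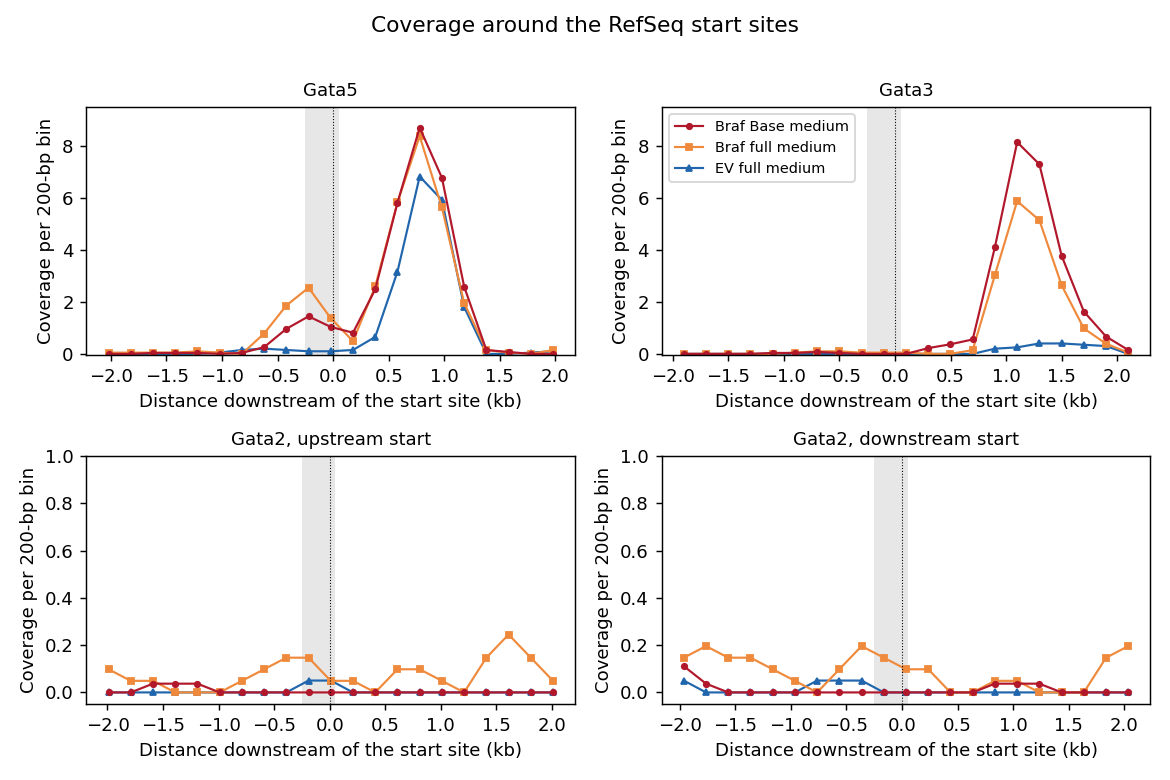
Coverage per 200-bp bin (y axis) from 2 kb before to 2 kb after the RefSeq start sites of Gata5, Gata3 and Gata2 (x axis, kb downstream), with 1 line per library and the printed promoter in grey; the Gata2 panels have a smaller y range. At Gata5 a separate, lower peak stands over and just upstream of the start in both Braf libraries and not in EV. At Gata3 the covered bins begin downstream of the promoter, and at Gata2 no bin reaches 0.298.

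At Gata5 the promoter gain sits beside a stretch that was methylated in all 3 libraries. The covered region there runs from 1278 bases downstream of the start to 721 bases upstream of it, chr2:180333401-180335400. All of it lies inside the RefSeq span of Gata5, whose high end is 103 bases beyond the region. The 1000 bases farther into the gene, chr2:180333401-180334400, had a coverage of 5.28 in Braf Base medium, 4.88 in Braf full medium and 3.67 in EV. The ratios to EV were 1.44 (1.18 to 1.77) in Braf Base medium and 1.33 (1.07 to 1.66) in Braf full medium. The 1000 bases over the start, chr2:180334401-180335400, had 0.904 in Braf Base medium, 1.41 in Braf full medium and 0.141 in EV. That is 6.43-fold above EV (2.58 to 17.2) in Braf Base medium and 10.0-fold (4.12 to 26.9) in Braf full medium. The boundary between these parts was drawn after the values were seen. With equal totals in place of the deposited scaling, the part farther into the gene went below EV in Braf full medium (log2 -0.29). The part over the start did not (log2 2.26). Between the Braf libraries, the part over the start was lower in Base medium by the deposited scaling (ratio 0.641, 0.425 to 0.940; log2 -0.61) and higher with the libraries scaled to equal totals (log2 0.24).

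The noncoding gene Gata5os starts inside Gata5 and runs the other way. Its promoter, chr2:180332607-180332906, has 0 CpGs and lay between covered stretches: it had no overlap in Braf Base medium, 0.0735 in Braf full medium and 0.0753 in EV. Next to it, chr2:180332001-180332600 had 0.926 in Braf Base medium, 1.47 in Braf full medium and 1.22 in EV, and no ratio among them had an interval that left out 1. A further stretch 2.2 kb below the low-coordinate end of Gata5 had 0.531 in Braf Base medium, 0.474 in Braf full medium and 0.485 in EV, and again no interval left out 1.

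Gata6 showed the largest difference in coverage of all covered stretches of the Gata loci, and it lay outside the gene. A stretch of 1200 bases, chr18:11047801-11049000, 3.5 to 4.7 kb below the low-coordinate end of Gata6 and inside the noncoding gene Gata6os, had a coverage of 3.54 in Braf Base medium, 3.20 in Braf full medium and 0.0920 in EV. Both Braf libraries were high and EV was low: 573 overlaps lay behind the value in Braf Base medium, 392 in Braf full medium and 11 in EV. The ratio to EV was 38.4 (16.4 to 157) in Braf Base medium and 34.8 (14.7 to 143) in Braf full medium. By the deposited scaling the Braf libraries did not differ beyond counting error (ratio of Base over full medium 1.11, 0.901 to 1.36). With equal totals Base medium was higher (log2 1.02). Inside Gata6, 25 kb above its low end, a second stretch had 2.83 in Braf Base medium, 1.98 in Braf full medium and 1.36 in EV. That was 2.09-fold above EV (1.37 to 3.16) in Base medium and 1.46-fold (0.909 to 2.31) in full medium. The third of them, 36 kb above the low end and beyond the gene, had 1.42 in Braf Base medium, 1.18 in Braf full medium and 1.19 in EV. The ends of Gata6 had little coverage, with 0.00674 and 0 at the low and high ends in Braf Base medium, 0.0846 and 0.0579 in Braf full medium, and 0 and 0.00913 in EV.

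Gata4 held few reads inside the gene in EV and had 2 covered stretches inside the gene in the Braf libraries. The first, chr14:63240401-63241800, had a coverage of 2.09 in Braf Base medium, 1.63 in Braf full medium and 0.0430 in EV, from 395, 233 and 6 overlaps. The ratio to EV was 48.6 (16.0 to 488) in Braf Base medium and 37.9 (12.3 to 382) in Braf full medium. The second, chr14:63255401-63256400, had 1.19 in Braf Base medium, 0.686 in Braf full medium and 0.0602 in EV, a ratio to EV of 19.7 (6.27 to 199) in Base medium and 11.4 (3.48 to 119) in full medium. Here the Braf libraries also differed from each other, by 1.73-fold (Base over full medium, 1.09 to 2.75). The stretches lie 42.2 and 57 kb above the low end of a gene of 72799 bases, and in both of them the EV library had an estimated 2 reads.

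Another stretch at the edge of the Gata4 locus belongs to its neighbour. It crosses the high end of Neil2, a DNA repair glycosylase, at chr14:63193201-63194200, and had 1.38 in Braf Base medium, 1.60 in Braf full medium and 0.833 in EV. The ratio to EV was 1.65 (1.10 to 2.60) in Base medium and 1.92 (1.25 to 3.02) in full medium. At the ends of Gata4 itself, coverage was 0.00674 and 0 in Braf Base medium, 0.0535 and 0.0312 in Braf full medium, and 0 and 0 in EV.

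Gata3, a factor of T cells and mammary epithelium, also held strong gains inside the gene, just downstream of the RefSeq start at hand. Its start lies at position 9878600, and chr2:9876601-9878200, 400 to 1999 bases downstream of it, had 3.32 in Braf Base medium, 2.28 in Braf full medium and 0.238 in EV. The highest bin there reached 8.15 in Braf Base medium, 5.88 in Braf full medium and 0.402 in EV. The ratio to EV was 13.9 (8.46 to 25.7) in Braf Base medium and 9.56 (5.73 to 17.8) in Braf full medium. Base over full medium gave 1.46 (1.19 to 1.78), so coverage was higher in Base medium beyond counting error. A stretch farther into the gene, 3.4 to 4.2 kb downstream of the start (chr2:9874401-9875200), had 2.25 in Braf Base medium, 1.78 in Braf full medium and 0.402 in EV. Its ratios to EV were 5.60 (3.10 to 10.8) and 4.42 (2.38 to 8.71) in Base and full medium.

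Gata3 had a further covered stretch in Base medium on the other side of its start. At chr2:9882201-9883200, 3.6 to 4.6 kb upstream of the start and shared with the noncoding genes 4930412O13Rik and 9230102O04Rik, coverage was 0.630 in Braf Base medium, 0.0588 in Braf full medium and 0 in EV. Braf Base medium was 10.7-fold above Braf full medium (3.38 to 113) and at least 8.41-fold higher than EV when set against 3 reads in EV; the lower limit of the exact interval, which counts the error in Base medium too, was 6.43. At its far end Gata3 went the other way: chr2:9858001-9858800, 19.8 to 20.6 kb downstream of the start, had 1.08 in Braf Base medium, 1.40 in Braf full medium and 1.82 in EV. Base medium was at 0.596 of EV there (0.398 to 0.893) and full medium at 0.767 (0.512 to 1.15), short of a loss by the threshold of -1; with equal totals the log2 ratio of full medium over EV was -1.04, past it.

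Gata2, a factor of blood stem cells, had 1 covered stretch and no gain. It lies 2.9 to 3.7 kb upstream of the upstream start, inside the noncoding gene Gm38708, and had 0.583 in Braf Base medium, 0.576 in Braf full medium and 0.376 in EV. The ratio to EV was 1.55 (0.743 to 3.35) in Base medium and 1.53 (0.693 to 3.40) in full medium, so neither differed from EV beyond counting error. Over the rest of the Gata2 locus no 1-kb tile reached 0.298 in any library.

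**Figure D2:**
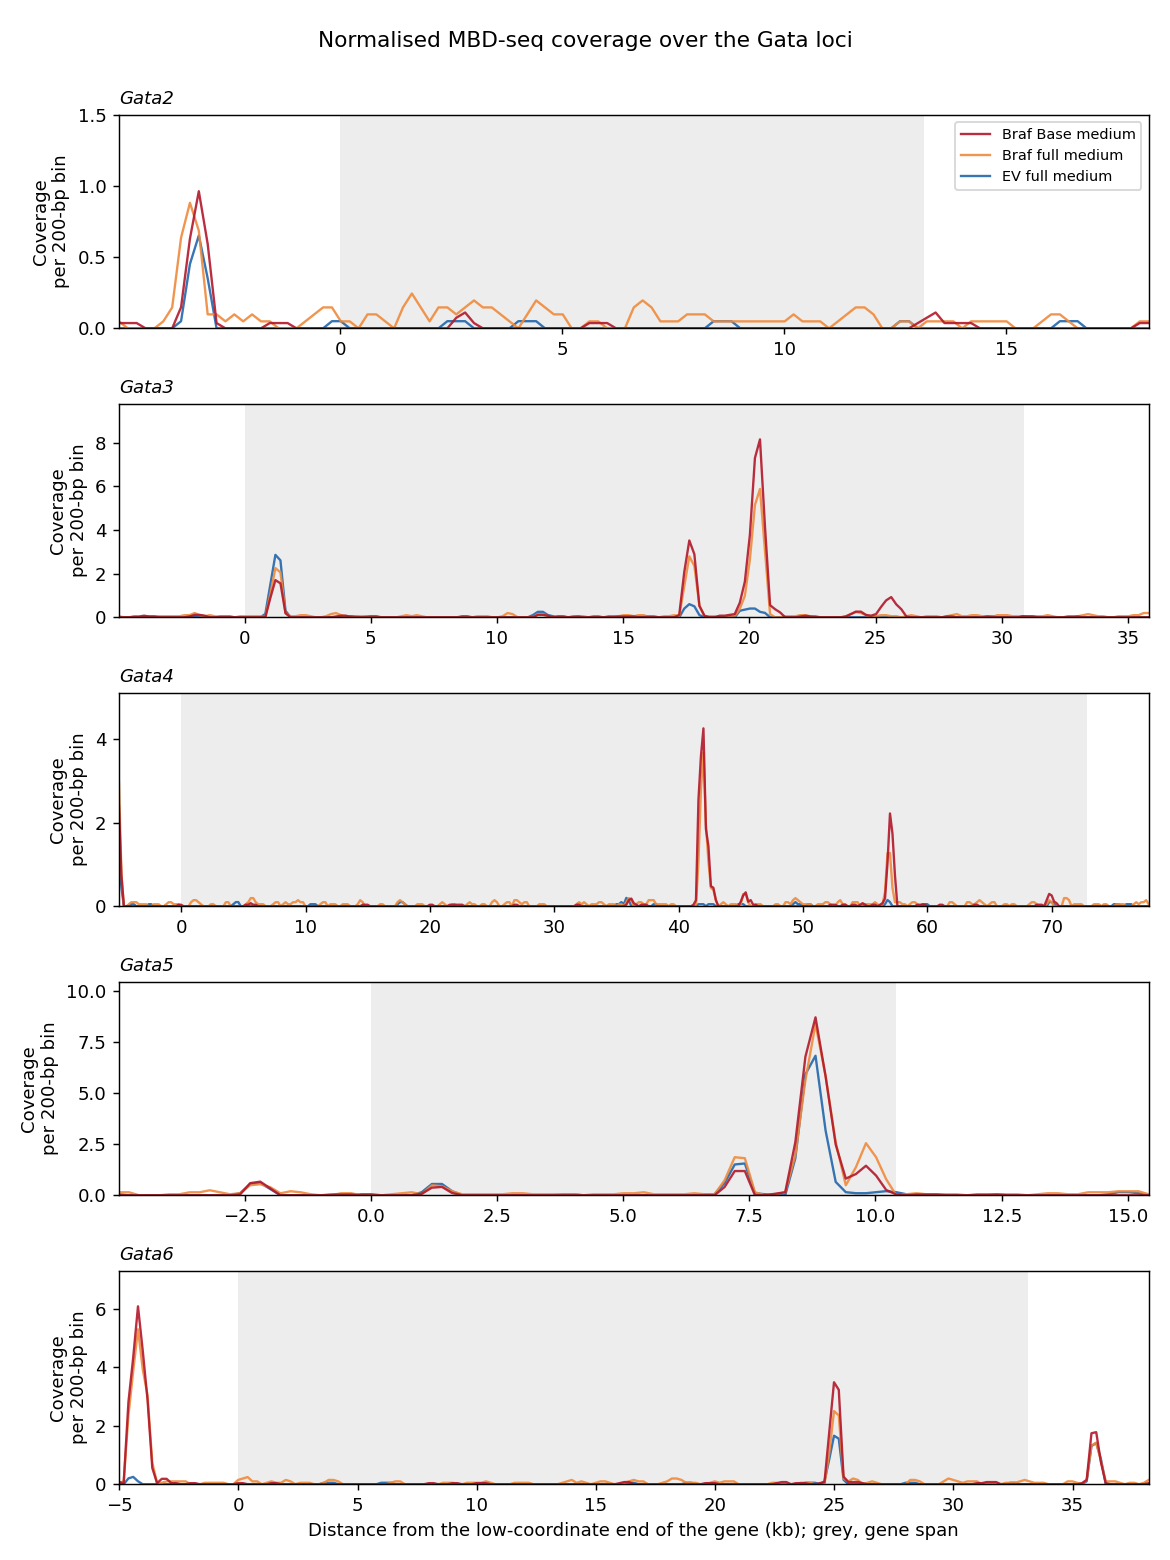
Normalised coverage per 200-bp bin (y axis, scale set per panel) over each Gata gene and 5 kb to either side (x axis, kb from the low-coordinate end), with 1 line per library and the gene span in grey. Coverage stands in a few sharp peaks; those at Gata6 (-4.1 kb), Gata4 (42.2 and 57 kb) and Gata3 (17.7 and 20.3 kb) are tall in the Braf libraries and low in EV, while Gata5 (9.3 kb) is tall in all.

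The stretches described are the 14 covered patches of the Gata loci: runs of bins at 0.298 or more in at least 1 library, joined over gaps of 1 bin and at least 600 bases long. They held 91.3% of the overlaps of the Gata3 locus in Braf Base medium, 77.7% in Braf full medium and 86.7% in EV. At Gata5 they held 95.6%, 83.8% and 90.1% and at Gata6 92.3%, 73.1% and 86.2% in the same order. No share is given for Gata4, because the patch shared with Neil2 runs past the edge of that locus. At Gata2 the 1 patch held 69.2% in Braf Base medium, 24.5% in Braf full medium, the library with the raised background, and 65.2% in EV. In 11 of the 14 patches the highest bin was the same one in both Braf libraries. The stretches were defined after the values were seen. Of the 14, 7 were gained in Braf Base medium over EV (log2 ratio of at least 1) and 0 were lost. By gene, these were 3 of 4 patches at Gata3, 2 of 3 at Gata4, 2 of 3 at Gata6, 0 of 3 at Gata5 and 0 of 1 at Gata2. In Braf full medium over EV, 5 were gained and 0 lost, 2 of them at Gata3, 2 at Gata4 and 1 at Gata6. Braf Base over full medium had 1 gained, at Gata3, and 0 lost.

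Set beside all 62119 patches of the autosomes, found by the same rule, gains made up 5.42% in Braf Base medium over EV, 6.22% in Braf full medium over EV and 3.14% in Braf Base over full medium. Losses made up 21.2%, 10.3% and 11.5% of all patches in the same comparisons. The median log2 ratio of the Gata patches was 0.86, 0.80 and 0.20, and that of all patches -0.35, -0.18 and -0.17. Because a patch must be covered in at least 1 library, patches that differ are favoured by the rule, in the Gata loci and elsewhere alike. The share of cells that carry the methylation and its degree per cell cannot be told apart in these bulk libraries.

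**Figure D3:**
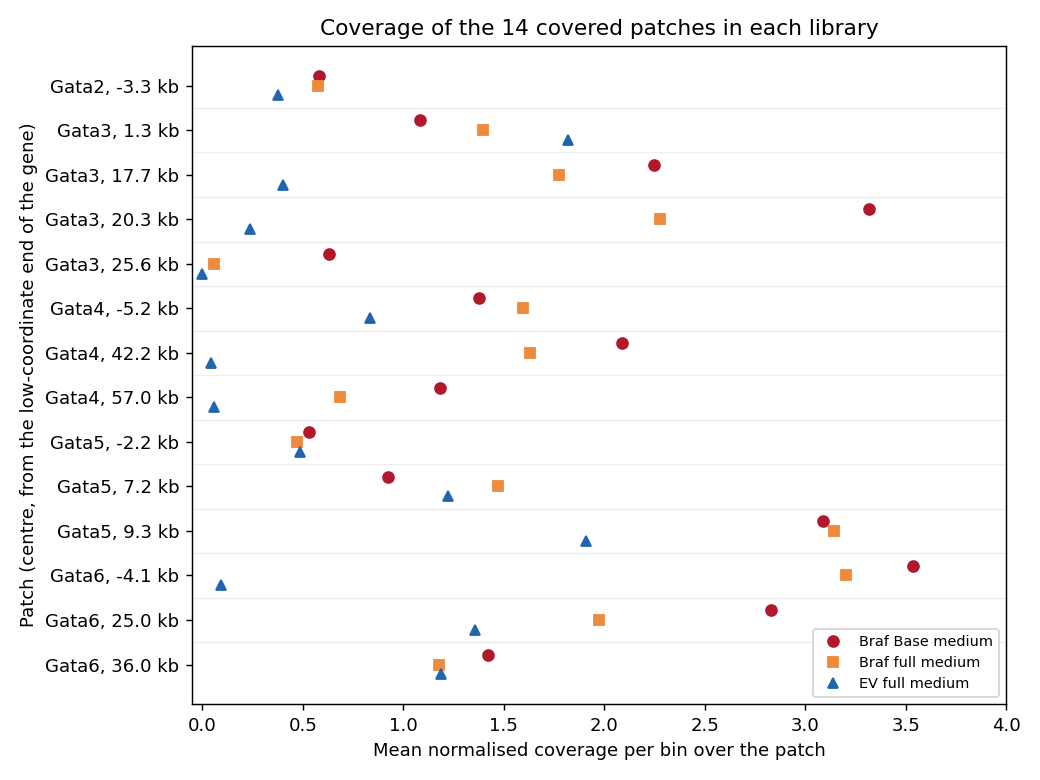
Mean coverage per bin (x axis) of the 14 covered patches of the Gata loci (rows, named by gene and distance of the centre from its low-coordinate end), with 1 symbol per library. At Gata3 (17.7 and 20.3 kb), Gata4 (42.2 and 57 kb) and Gata6 (-4.1 kb) both Braf libraries lie far to the right of EV, at Gata3 (25.6 kb) Braf Base medium alone does, and at Gata3 (1.3 kb) EV is the highest.

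Counted on fixed 1-kb tiles, which follow no patch borders, the picture by gene changed at Gata5. The loci overlap 215 tiles, of which 19 reached 0.298 in at least 1 library: 18 did so in Braf Base medium, 16 in Braf full medium and 9 in EV. Of all 2462738 autosomal tiles, 79369 reached it in at least 1 library. The share of all tiles was not worked out per library, so the counts per library could not be set against the genome. In Braf Base medium over EV, 11 tiles were gained and 0 lost: 4 at Gata3, 4 at Gata4, 2 at Gata6, 1 at Gata5 and 0 at Gata2. Of all autosomal tiles 0.155% were gained and 0.505% lost, and of those that reached 0.298 in a library 4.80% and 15.7%. In Braf full medium over EV, 9 tiles were gained and 0 lost: 2 at Gata3, 3 at Gata4, 2 at Gata6, 2 at Gata5 and 0 at Gata2. The shares of all tiles were 0.179% gained and 0.205% lost, and of covered tiles 5.55% and 6.37%. With the background of each library subtracted, the counts of gained tiles were again 11 and 9. Neighbouring tiles of a locus often lie in 1 patch and are not separate events.

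Between Base and full medium, the number of Gata tiles called depended on the scaling. By the deposited scaling 2 of the 215 tiles were gained and 0 lost, against 0.0730% and 0.225% of all tiles and 2.27% and 6.98% of covered tiles. They were the Gata3 tile at chr2:9882001-9883000, with 0.585 in Braf Base medium and 0.0686 in Braf full medium, and the Gata4 tile at chr14:63256001-63257000, with 0.496 and 0.157. Gata5 and Gata6 had none. With the libraries scaled to equal totals, 12 Gata tiles were gained and 0 lost, against 0.773% and 0.0411% of all tiles. Patches gave 8 of 14 gained and 0 lost on that scaling, 3 at Gata3, 2 at Gata4, 3 at Gata6 and 0 at Gata2 and Gata5, against 25.6% of all patches gained and 3.99% lost.

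Averaged over a whole locus the differences shrink, since most bins lie outside the covered stretches. Gata3 had a mean coverage of 0.230 in Braf Base medium, 0.196 in Braf full medium and 0.0607 in EV, and Gata6 had 0.170, 0.181 and 0.0437. Gata5 was the most covered, with 0.358, 0.432 and 0.261, and Gata4 (0.0685, 0.0883 and 0.0126) and Gata2 (0.0288, 0.0804 and 0.0197) the least. The log2 ratio of Braf Base medium over EV was 1.27 at Gata3, 1.15 at Gata6, 0.83 at Gata4, 0.38 at Gata5 and 0.16 at Gata2, where the median of 20665 protein-coding genes was 0.00. A ratio of at least 1, held by Gata3 and Gata6, was found at 1.31% of genes. In Braf full medium over EV the values were 1.09, 1.22, 1.03, 0.62 and 0.82 in the same order of genes, with a median over all genes of 0.49 and 3.75% of genes at 1 or more. With the background of each library subtracted, that median became 0 and Gata6 alone of the 5 kept a ratio of at least 1, at 1.02, as 1.43% of genes did; Gata3 had 0.89 and Gata4 0.66. Without its outer flanks Gata6 fell below 1 in both comparisons: over the gene span alone it was at 0.42 in Base medium over EV and at 0.67 in full medium over EV, where 27.6% of genes were higher. With equal totals the median was 0.20, and Gata5 had 0.02. For Braf Base over full medium, Gata3 was at 0.18, Gata6 at -0.07, Gata4 at -0.21, Gata5 at -0.23 and Gata2 at -0.66, with a median over all genes of -0.51; with equal totals the signs of Gata4, Gata5 and Gata6 turned (0.30, 0.54 and 0.60), with a median of -0.16.

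The ends of the genes missed most of this. In windows extending 1 kb in either direction from the ends of each gene, called at a log2 ratio of 1 and a coverage of at least 0.119, 1 of 10 Gata ends was gained in Braf Base medium over EV and 0 were lost. The same held for Braf full medium over EV. Of all gene ends, 3.23% were gained and 1.40% lost in Base medium over EV, and 4.64% and 0.602% in full medium over EV. In both it was the high end of Gata5, with 0.424 in Braf Base medium, 0.668 in Braf full medium and 0.0821 in EV. This call ended with windows of 2 kb in both comparisons and with windows of 500 bp in Base medium over EV. The low end of Gata3 had 0.0909 in Braf Base medium, 0.120 in Braf full medium and 0.151 in EV, lower than the high end of Gata5 in both Braf libraries and higher than it in EV. In Braf Base over full medium no Gata end was gained or lost, where 1.03% of all ends were gained and 2.94% lost.

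Over the 3 libraries, the gene ends most like the Gata5 end were those of Htra4 (0.502 in Braf Base medium, 0.673 in Braf full medium and 0.0684 in EV), Pgbd1 (0.461, 0.664 and 0.0593) and Gpr4 (0.445, 0.619 and 0.110). Their distances from it, over 3 values of log2 coverage with 0.0597 added, were 0.26, 0.27 and 0.28. For Gata2, Gata4 and Gata6 the better covered end had little coverage, and 61, 184 and 77 other ends had exactly the same 3 values. For the low end of Gata3 the nearest were Fkbp10, Tmem14c and Car14, at 0.04, 0.04 and 0.07.

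Among genes that work with GATA factors, 4 of 20 partners had a gained end and 1 a lost end, both in Braf Base medium over EV and in Braf full medium over EV. Of all genes, 6.19% gained and 2.61% lost in the first comparison, and 8.55% and 1.13% in the second. Hand2, a GATA4 partner in heart development, had 0.946 in Braf Base medium, 0.650 in Braf full medium and 0.0183 in EV at its low end. Lyl1, a blood factor that binds DNA beside GATA2, had 3.91, 3.86 and 0.630 at its high end, and Tbx20, a heart factor, 0.226, 0.187 and 0. Zfpm2, which encodes the cofactor FOG2, was the 1 lost, with 0.0808, 0.0846 and 0.488. None of the 5 genes for other proteins with a GATA-type zinc finger (Trps1, Gatad1, Gatad2a, Gatad2b and Zglp1) was gained or lost by the deposited scaling; with equal totals 1 was gained in Base medium over EV and 1 lost in full medium over EV. The median log2 ratio over the ends of the partners was 0.00 in Base medium over EV and 0.61 in full medium over EV, and over all ends 0.00 and 0.66.

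Factors of the endoderm and intestine had 5 of 20 genes gained and 1 lost in Braf Base medium over EV, and 6 gained and 1 lost in Braf full medium over EV. Cdx1, an intestinal homeobox factor, had 0.741 in Braf Base medium, 1.31 in Braf full medium and 0 in EV at its high end, and Sox17, an endoderm factor, had 0.802, 0.423 and 0.0137 at its low end. Pdx1, a factor of pancreas and duodenum, had 0.458 in Braf Base medium, 0.352 in Braf full medium and 0.00456 in EV at its high end, and Hhex, a factor of foregut endoderm, had 0.263, 0.165 and 0.0137 at its low end. With equal totals, 6 were gained and 0 lost in Base medium over EV, and 3 gained and 1 lost in full medium over EV; of all genes, 7.46% were then gained and 2.45% lost in the first comparison and 3.81% and 4.28% in the second. Factors of blood and lymphoid cells had 3 of 20 gained and 0 lost in Base medium over EV, and 2 and 0 in full medium over EV. Beside Lyl1, which is in both lists, these were Gfi1b, with 0.216 in Braf Base medium, 0.272 in Braf full medium and 0.0274 in EV, and, in Base medium, Meis1, with 0.152, 0.0445 and 0.0137. The median log2 ratio over the ends of the endoderm factors was 0.01 in Base medium over EV and 0.83 in full medium over EV, and over those of the blood factors 0.19 and 0.71. Markers of endothelial and neural cells moved as well: 4 of 6 had a gained end in Base medium over EV and 3 of 6 in full medium over EV, with a summed coverage of 2.63 in Braf Base medium, 1.63 in Braf full medium and 0.949 in EV. With equal totals they had 2 gained and 2 lost in full medium over EV, and with background subtracted 3 and 1. The median log2 ratio over their ends was 0.22 in Base medium over EV and 0.31 in full medium over EV. Of 6 immune markers 0 were gained or lost, of 9 fibroblast and muscle markers 2 were gained and 1 lost in Base medium over EV and 1 and 1 in full medium over EV, and of 10 epithelial markers Cdx1 was gained in both. The part of other cells in these values was not tested.

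**Figure D4:**
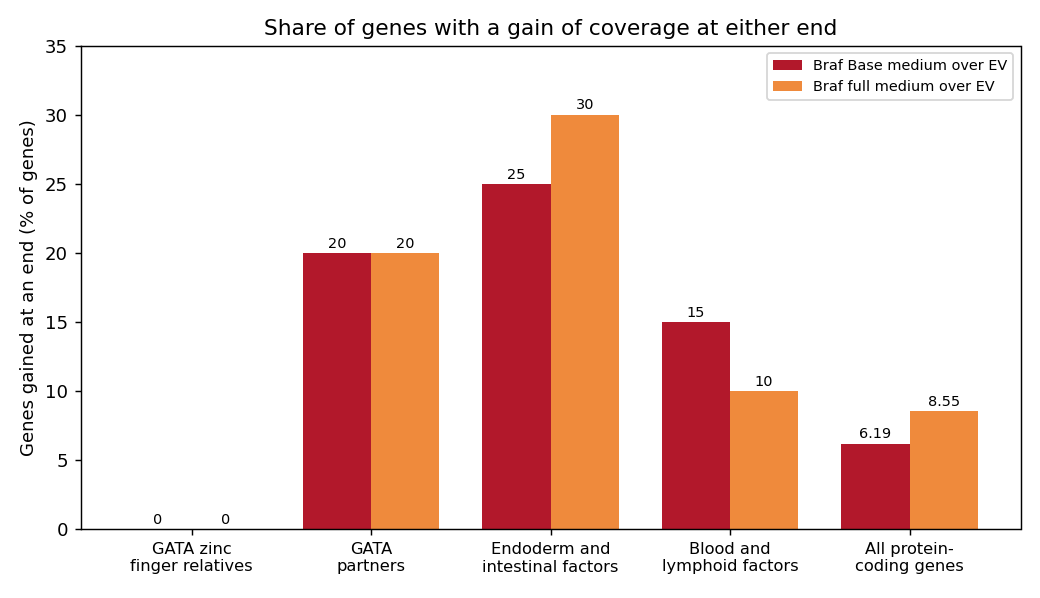
Share of genes, in percent (y axis), with coverage gained at either end, in 4 lists of genes related to the Gata factors and in all protein-coding genes (x axis), as 1 bar for Braf Base medium over EV and 1 for Braf full medium over EV. Partners stand at 20% in both, endoderm factors at 25% in Base and 30% in full medium, blood factors at 15% and 10%, the zinc finger relatives at 0 and all genes at 6.19% and 8.55%.

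Between Base and full medium the lists of genes related to the Gata factors moved little by the deposited scaling. The endothelial and neural markers moved more, with 2 of 6 gained and 0 lost. These were Elavl4 (0.677 in Braf Base medium and 0.120 in Braf full medium) and Kdr (0.478 and 0.200). With equal totals 3 of the 6 were gained, and 3 with background subtracted. No epithelial, fibroblast and muscle or immune marker was called by the deposited scaling. No partner and no zinc finger relative was called, the endoderm factor Creb3l3 was lost at its low end (0 in Braf Base medium and 0.143 in Braf full medium), and the blood factor Meis1 was gained. Of all genes, 2.02% were gained and 5.40% lost. With equal totals, 4 partners, 5 endoderm factors, 1 blood factor and 1 zinc finger relative were gained and 0 lost in Base over full medium, where 9.54% of all genes were gained and 0.992% lost.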

How the data were processed

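The 3 organoid libraries were made, per the labels' protocols, from 100 to 200 ng of genomic DNA broken into pieces of 200 to 400 bp and read as 50-bp single ends. The submitters' processing notes name Bowtie2 and mm10; how reads became values per bin is not given. The deposited values are log2 values, normalised by the authors in a way not stated, for 200-bp bins of chromosomes 1 to 19 (Gata1, on X, was not analysed here). Raised from the log2 scale, each value was 0.0153 plus whole steps (0.0370 in Braf Base medium, 0.0490 in Braf full medium, 0.0502 in EV; tolerance 0.001 of a step), taken as read overlaps. Lone reads covered 2.48, 2.42 and 2.49 bins, which gave the estimated reads; reads without molecular identifiers are not independent molecules.

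Gene spans and promoter sequences were RefSeq's on GRCm38.p6, matched by symbol: 5 of 5 genes and 3 of 5 for promoters. Regions were averaged over all bins they overlap. Ratios were called at log2 of 1 or -1 after adding 0.0597, the mean coverage per bin. Background was the mean over tiles at least 5 kb from covered ones. Named were the 5 Gata genes, their highest and most changed tiles (given through the patches that hold them), overlapping neighbours, the 3 nearest gene ends and up to 4 called genes a list. The members and lists were chosen with earlier results of these data known, and patches, promoter windows and the parts of the Gata5 patch after the values were seen. The rule for calling tiles was tried on simulated tiles changed by known folds. The outcome is not given here, so it adds no support to the calls. Python 3.11.15, numpy 2.4.6, pandas 2.3.3 and scipy 1.17.1 were used.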

Additional observations from a re-analysis of the deposited data

How the results depend on the processing

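The libraries differ in depth and background, and the authors' scaling is not stated; scaling to equal totals shifts Braf full medium by -0.70 and Braf Base medium by 0.19 relative to EV (log2). Gata tiles called in Braf full medium over EV numbered 9, and 18 with a minimum of 2 times the mean and were 6 to 11 under the other 8 alternatives (8 gained and 1 lost with equal totals). In Braf Base over full medium, the 2 tiles became 12 with equal totals, 1 with a pseudocount 4 times as large, 7 (2 gained and 5 lost) with a minimum of 2 times the mean, 0 with a minimum of 10 times the mean and 1 with tiles shifted by 400 bp. In Braf Base medium over EV, the 11 tiles were 8 to 15 under all 9 alternatives, none of them lost. The median log2 ratio of the 5 loci in Braf full medium over EV was 1.03, and 0.62 with equal totals, 0.66 with background subtracted and 0.43 with the larger pseudocount. In Braf Base over full medium it was -0.21, and 0.54 with equal totals and 0.18 with background subtracted. In Braf Base medium over EV it was 0.83, and 0.29 with the larger pseudocount, 0.44 with 2 kb on either side and 0.45 with the span alone, where Gata6 itself fell to 0.40 and 0.42, its peak being 3.5 kb outside the gene. The 1 Gata end gained became 0 with windows of 2 kb in Braf full medium over EV, and 0 with windows of 500 bp or 2 kb in Braf Base medium over EV. Where no cause is given, the cause was not tested. Of 90 values of single loci, 70 stayed within their counting error. A turn of sign was counted only where the main log2 ratio was at least 1 in size, and none occurred there. Smaller ratios did change sign, among them Gata4, Gata5 and Gata6 in Braf Base over full medium with equal totals (0.30, 0.54 and 0.60). No paired analysis was possible because each group held 1 library. In EV, 6 overlaps lie behind each Gata4 patch inside the gene, so the size of those ratios is poorly fixed.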
